A study of Salmo salar with 18 samples.

Results

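The genes described here are those whose transcripts were lower in every gill sampled 1 h after a short air exposure than in every gill sampled before it. They were chosen by their values at these times. A gene was taken when all 6 of its 1 h values lay below all 6 of its pre-stress values, with both diets pooled, and when its mean log2 expression was lower at 1 h by at least 0.4. Log2 expression is the log2 of CPM (counts per 1000000 counts) with 0.5 added to each count, and the total is that of the 16 chromosomes that were complete in every library. The rule took 107 genes out of 21543 that lie on these chromosomes and had a mean of at least 1 CPM over all 18 libraries. This is 0.497% of them. The 6 h libraries entered the choice only through this filter on mean CPM. The same rule turned upwards took 294 genes, or 1.36%. Since the 1 h and pre-stress values chose the genes, the size of their fall is a description and was not tested.

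The samples were gills of Atlantic salmon (Salmo salar) parr from 1 genetic line. Fish had eaten a control diet (CD) or that diet with LAN4, a product of hydrolyzed Debaryomyces hansenii yeast, for 7 weeks and for 1 further week of acclimatization. They were taken without stress (pre-stress), or 1 h or 6 h after being netted out of the water for 1 min, which the study used as an acute hypoxia stress. There were 3 fish, each with its own library, for each of the 6 combinations of diet and time, and thus 6 libraries per time point. The pre-stress fish had been moved between tanks like the others but had not been netted for the stress, so netting, air exposure and the time that followed it are 1 contrast.

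A short stress in fish is followed within an hour by a burst of immediate early genes, whose transcripts are made without new protein and decay fast. A stable messenger stays near its level for hours after its gene is shut off, and only a short-lived one can be lost within an hour by that route. Genes for transcription factors and for signalling regulators often have such short-lived messengers. The gill is the organ of gas exchange and ion balance, with a thin epithelium, ionocytes, mucous cells, cartilage-supported filaments and pillar cells that line its blood spaces. In these bulk samples, fewer cells of a type and less RNA per cell cannot be told apart.

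The libraries held 10128626 to 19851609 counted fragments, of which 7323608 to 14644411 were on the 16 chromosomes used. The 6 h libraries had no counts on 4 to 12 of the 29 numbered chromosomes, which is why the other chromosomes were not used. The alignment names in the headers place every 1 h library on sequencing lane 1, and every library of pre-stress and of 6 h on lane 3. The fall at 1 h and the lane therefore cannot be told apart, whereas 6 h and pre-stress were compared within lane 3. Markers of every gill cell type listed were detected at all times, including cartilage (5730 to 16600 summed CPM), leukocytes (4570 to 6600), erythrocytes (1340 to 2630) and ionocytes (757 to 1660). The summed level of each of the 7 marker lists overlapped between pre-stress and 1 h. Several sums rest mostly on few genes. At pre-stress col10a1b (mean 8590 CPM) and col10a1a (3490) led the cartilage sum, and cd74a (4950) led the leukocyte sum. The gene slc4a1b was counted in the erythrocyte and ionocyte sums, and gata1 in the erythrocyte and leukocyte sums. The leukocyte list names gata3 and not gata1, which was matched to it by synonym. The overlap of the sums is therefore no measure of each cell type. No marker gene was among the 107, but lists this short would mostly hold none, as the rule took 0.497% of eligible genes. Skeletal muscle markers had the largest median change of these lists. Their summed level ranged from 180 to 901 CPM at pre-stress, 177 to 684 at 1 h and 172 to 832 at 6 h, and the median log2 change of the 8 genes above 1 CPM was -1.11 at 1 h. The part of muscle content in the fall of the 107 genes was not tested.

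The fall was small for most of the 107 genes. In 54 of them the mean log2 difference lay between -0.6 and -0.4, in 30 between -1 and -0.6, in 9 between -2 and -1, and in 14 beyond -2. The median was -0.59, against 0 over all 21543 genes. None of the 107 lay between -1.57 and -2.65, and the 14 genes beyond this gap are described apart from the other 93. The gap holds for these genes alone, since 29 further eligible genes had a mean fall of more than 2 with groups that overlapped. The genes just inside the threshold were LOC106603437 (-0.40), LOC106574936 (-0.40) and ENSSSAG00000107721 (-0.40), and those just outside, whose groups also did not overlap, were LOC106603389, ENSSSAG00000090702 and ENSSSAG00000073579 (each -0.39). There were 80 genes with no overlap that did not reach the threshold, and 1176 that reached it but whose groups overlapped. The map of all 107 genes by library shows the 2 kinds of fall and the uneven position of the genes at 6 h.

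**Figure D1:**
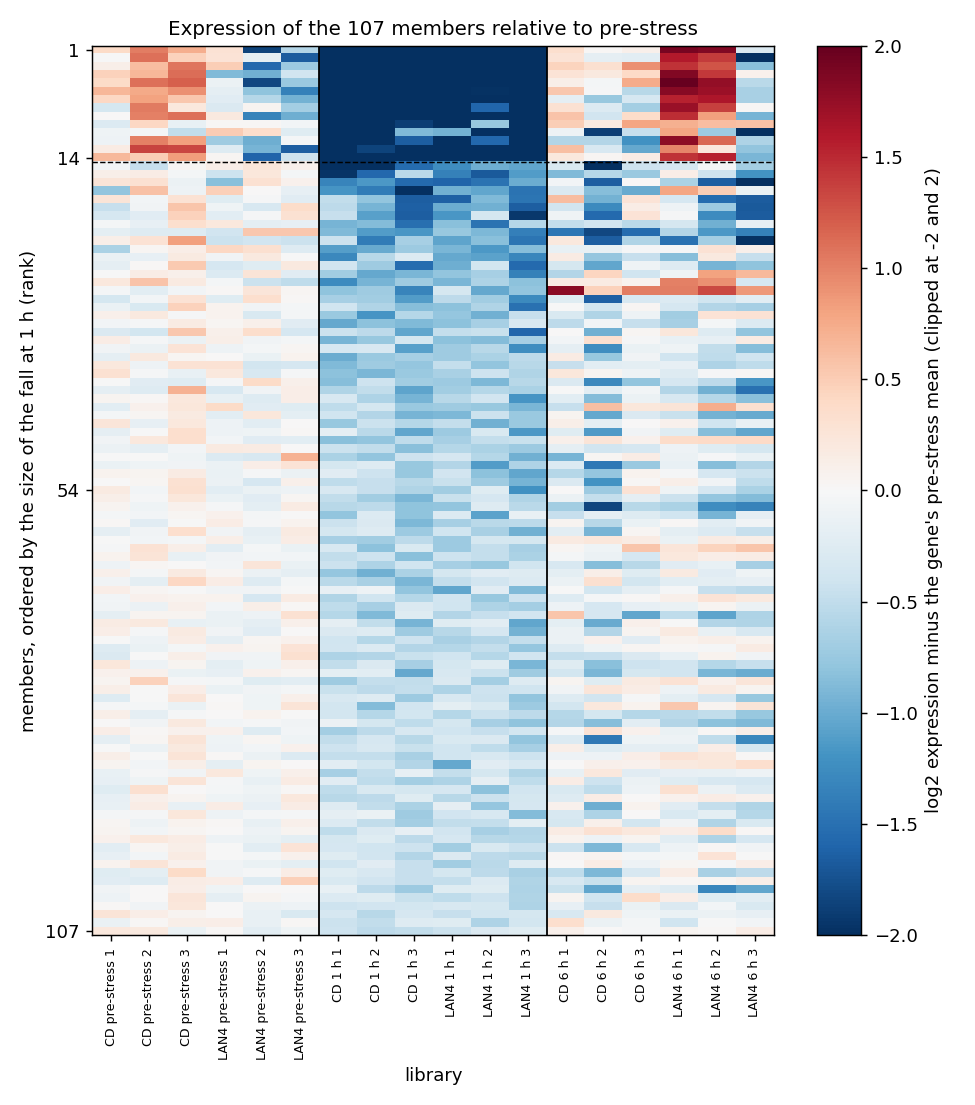
Each of the 107 genes (rows, by the size of the fall at 1 h, with the 14 deepest above the dashed line) in each of the 18 libraries (columns), as log2 expression minus that gene's mean over the 6 pre-stress libraries, with colours clipped at -2 and 2. The 1 h block is blue because the rule chose it so. The 6 h block, which the rule used only in its filter on mean CPM, runs from red to blue. LAN4 6 h libraries 1 and 2 are reddest in the 14 deepest rows.

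Of the 107 genes, 21 have a gene symbol in RefSeq, 56 have only a LOC number and 30 could not be paired with a RefSeq gene by position. Among the paired genes 72 are protein coding, 2 are long noncoding RNAs and 3 are pseudogenes, of which 1 is listed as transcribed. Their median exonic length was 3717 bases against 3734 over all eligible genes, and their median expression was 9.78 CPM against 18.4. They were spread over all 16 chromosomes, from 0.0726% of the eligible genes on chromosome 10 (1 of 1377) to 0.927% on chromosome 3 (14 of 1511). Only 3 pairs lay within 100000 bases of each other. The annotated span of 47 of them overlaps another gene, and since the counting used strand and left out fragments that fit several genes, only overlaps on the same strand, as at sptan1 and hsp7c, could take fragments from them.

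The genes with a symbol are given here by known roles, an ordering made after the members were seen and not a tested grouping. Among regulators of transcription and early-response genes, the symbol ier5l stands for a relative of immediate early response genes (chromosome 1, 160797751 to 160800308, + strand, Ssal_v3.1, a gene of 1 exon). Its expression ranged from 55.5 to 67.4 CPM at pre-stress (median 59.0), from 31.7 to 47.5 at 1 h (median 34.9) and from 54.2 to 75.5 at 6 h (median 59.0). The mean log2 difference was -0.73 at 1 h and 0.02 at 6 h, and all 6 h libraries were above all 1 h libraries. At 6 h this gene thus stood near its pre-stress level in each diet (0.08 in CD and -0.05 in LAN4). Its low level at 1 h cannot be told apart from the lane, so a return from it was not tested.

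The symbol snai1b is a copy of Snail, a zinc finger repressor that drives epithelial cells toward a mesenchymal state (chromosome 13, 17377608 to 17384079, - strand). It was scarce, with 0.944 to 1.39 CPM at pre-stress (median 1.19), 0.428 to 0.711 at 1 h (median 0.623) and 0.761 to 2.05 at 6 h (median 1.33). Its mean log2 difference was -0.90 at 1 h and 0.13 at 6 h. After the 14 deep falls it was the gene with a symbol that fell most.

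The factor mycb, a copy of the growth-promoting transcription factor Myc (chromosome 14, 1551104 to 1555111, - strand), ranged from 17.7 to 21.2 CPM at pre-stress (median 20.1), from 12.2 to 17.2 at 1 h (median 14.1) and from 12.9 to 21.2 at 6 h (median 15.7). Its mean log2 difference was -0.44 at 1 h and -0.26 at 6 h, and its 6 h values overlapped those of both other times. It was the only one of the 107 genes that was matched to any of the 17 pathway lists. On its own list, immediate early and AP-1 genes, 11 of 17 measured genes met the upward rule at 1 h, among them jun, junb, fosl2, atf3 and egr3, and the list's median change was 1.33. The direction of mycb was thus opposite to that of most of its list. None of the 107 genes was matched to the other lists, among them the circadian clock (12 measured genes), the cell cycle (21), collagens (10), ribosomal proteins (32) and interferon and antiviral genes (13). The rule took 0.497% of all eligible genes, so lists of this size would mostly hold none. Genes were matched to lists by symbol or synonym, and only 21 of the 107 have a symbol. An empty list is therefore no result about its pathway.

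The osmotic stress factor nfat5b ranged from 53.5 to 77.2 CPM at pre-stress (median 58.5), from 26.6 to 52.4 at 1 h (median 42.7) and from 37.3 to 75.3 at 6 h (median 53.3). The zinc finger homeobox factor zfhx3b ranged from 36.9 to 52.7 CPM at pre-stress (median 40.3), from 18.7 to 36.7 at 1 h (median 27.0) and from 19 to 39.7 at 6 h (median 29). The 2 genes differed at 6 h in where their means stood, since nfat5b was at -0.25 and zfhx3b at -0.60 relative to pre-stress, after falls to -0.59 and -0.65. Neither 6 h difference passed the test across genes. The Mediator subunit gene med23, part of the bridge between such factors and RNA polymerase, was at -0.45 at 1 h and -0.16 at 6 h.

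Signalling regulators were tcima, dact1 and edn1. The product of tcima, whose mammalian counterpart TCIM acts on the Wnt pathway, is a small regulator (chromosome 20, 36092658 to 36094617, + strand, 1 exon). Its expression was 3.78, 3.32 and 3.69 CPM in CD and 3.95, 4.55 and 3.96 in LAN4 at pre-stress. At 1 h it was 2.18, 2.36 and 1.52 CPM in CD and 3.03, 1.87 and 2.23 in LAN4. At 6 h it was 13.6, 5.36 and 7.93 CPM in CD and 7.93, 9.76 and 7.09 in LAN4. It was the only one of the 107 genes whose 6 h values all lay above its pre-stress values, which 2.74% of all genes did. The edgeR quasi-likelihood test gave a log2 change of 1.17 (SE 0.192) from pre-stress to 6 h with an adjusted p of 0.000724, in a contrast that shares its pre-stress libraries with the rule.

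The gene dact1, which encodes a partner of Dishevelled that restrains Wnt signalling (chromosome 1, 38857365 to 38866110, + strand), took the other course. It ranged from 33.2 to 42.5 CPM at pre-stress (median 36.9), from 20.9 to 27.8 at 1 h (median 24.8) and from 28.7 to 35.0 at 6 h (median 30.8). All 6 h libraries were above all 1 h libraries, and the edgeR change from pre-stress to 6 h was -0.24 (SE 0.0718, adjusted p = 0.0354), a call that was lost under 10 of 23 alternatives with adjusted p up to 0.0931. No gene of the Wnt list was among the 107, and the median change of its 7 measured genes was 0.14 at 1 h.

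The vasoconstrictor endothelin is encoded by edn1 (chromosome 14, 78641652 to 78645319, - strand), and in fish gills endothelin contracts pillar cells and so narrows the blood spaces of the lamellae. It ranged from 1.91 to 3.00 CPM at pre-stress (median 2.20), from 1.2 to 1.81 at 1 h (median 1.37) and from 1.66 to 3.82 at 6 h (median 2.82). Its mean log2 difference was -0.66 at 1 h and 0.28 at 6 h. Endothelial and pillar cell markers as a list had a median change of -0.07 at 1 h, and their summed level was 1050 to 1650 CPM at pre-stress and 1010 to 1390 at 1 h.

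**Figure D2:**
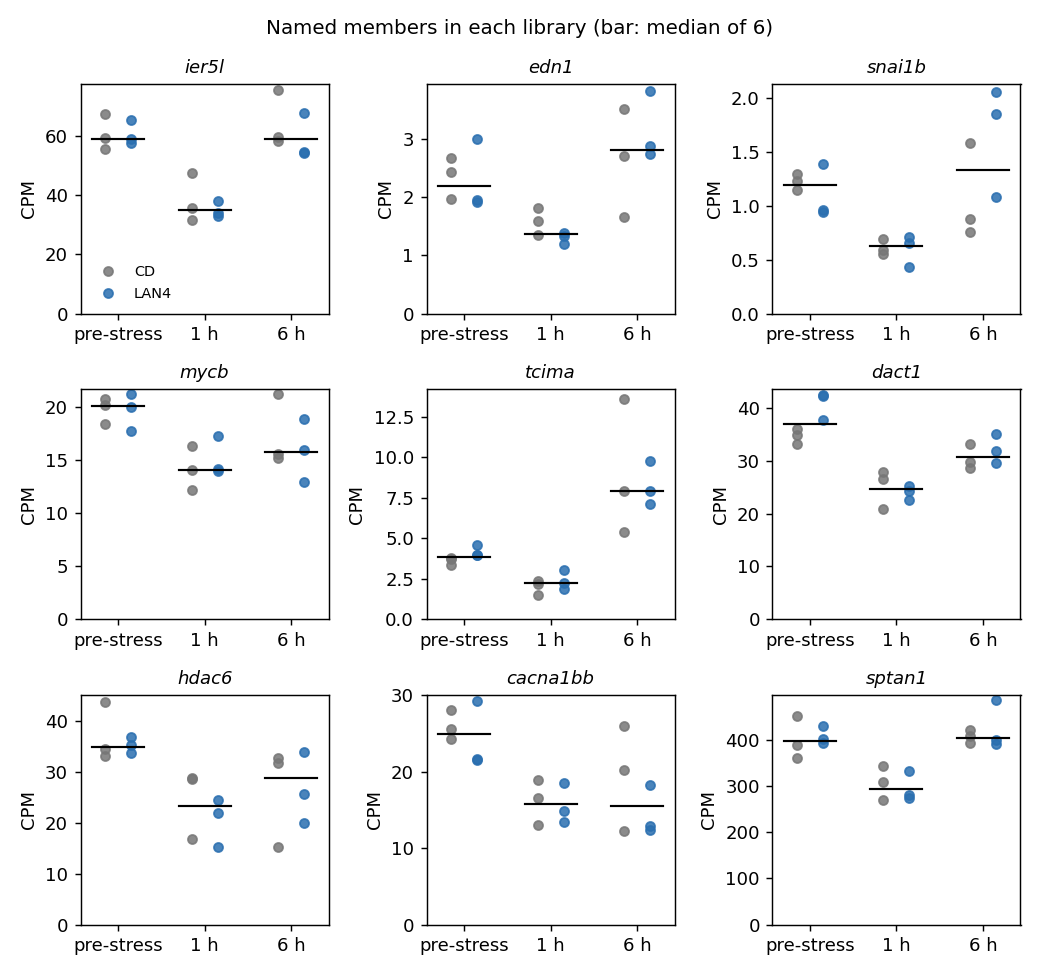
CPM in each library (1 point per fish, CD grey and LAN4 blue) for 9 of the genes with a symbol, at pre-stress, 1 h and 6 h, each panel on its own linear axis from 0, with a black bar at the median of 6 libraries. At 1 h all points lie below those of pre-stress by choice of the genes, and at 6 h ier5l and sptan1 have medians of 59.0 and 404 CPM against 59.0 and 398 at pre-stress, tcima is above it in every library, and cacna1bb has a median of 15.5 CPM against 24.9.

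The genes sptan1, hdac6, ccdc40, fuz and cacna1bb have roles in the cytoskeleton, cilia or membrane. The most abundant of the 107 was sptan1, the spectrin chain that braces the membrane of nonerythroid cells (chromosome 1, 158838692 to 158893132, - strand, 56 exon blocks). It ranged from 361 to 452 CPM at pre-stress (median 398), from 270 to 343 at 1 h (median 294) and from 391 to 487 at 6 h (median 404). The difference of -0.43 at 1 h was near the threshold, and at 6 h it was 0.04. The lowest pre-stress library and the highest 1 h library were 361 and 343 CPM, so the groups were separate by a small margin.

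The cytoplasmic deacetylase gene hdac6, whose product acts on tubulin, ranged from 33.1 to 43.7 CPM at pre-stress (median 34.8), from 15.2 to 28.7 at 1 h (median 23.2) and from 15.2 to 33.9 at 6 h (median 28.7). Its 6 h mean was still at -0.50 relative to pre-stress after -0.71 at 1 h. The genes ccdc40 and fuz, which serve the assembly of cilia, were at -0.62 and -0.46 at 1 h and at -0.17 and 0.08 at 6 h. The calcium channel gene cacna1bb, which encodes the pore of an N-type channel known from nerve terminals, ranged from 21.5 to 29.2 CPM at pre-stress (median 24.9), from 13 to 18.9 at 1 h (median 15.8) and from 12.2 to 25.9 at 6 h (median 15.5). It had regained 7.52% of its fall at 6 h, a share that crosses the lanes. The edgeR change from pre-stress to 6 h was -0.55 (SE 0.153, adjusted p = 0.0250, up to 0.0696 over the alternatives).

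Genes of protein turnover, RNA and mitochondria made up the rest of those with a symbol. The gene ndua6, for a subunit of respiratory complex I, ranged from 32.4 to 50.4 CPM at pre-stress (median 40.1), from 21.5 to 30.5 at 1 h (median 25) and from 33.9 to 47.3 at 6 h (median 40.8). Its 6 h mean was at -0.01 relative to pre-stress. The mitochondrial fission gene mtfr2 was at -0.44 at 1 h and -0.35 at 6 h. The ubiquitin ligase gene ubr1 was at -0.52 and -0.16, the messenger cap methyltransferase gene cmtr2 at -0.47 and 0.13, the tRNA modification gene lage3 at -0.54 and -0.07, and the adaptor subunit gene ap5b1 at -0.53 and 0.05. None of these changes at 6 h passed the test. Of the 20 genes with a symbol outside the 14 deep falls, only tcima, dact1 and cacna1bb were called at 6 h.

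Several abundant genes carried no symbol. LOC106606227 ranged from 281 to 444 CPM at pre-stress (median 379), from 197 to 260 at 1 h (median 216) and from 236 to 323 at 6 h (median 289). ENSSSAG00000039031 ranged from 224 to 309 CPM at pre-stress, from 140 to 208 at 1 h and from 145 to 242 at 6 h, and LOC106566616 from 139 to 193, from 73.2 to 133 and from 91.3 to 153. These genes regained 49.3%, 18.8% and 26.8% of their fall, shares that cross the lanes. LOC106568832 and LOC106578470 stood nearer their pre-stress levels. LOC106568832 had 99.7 to 119 CPM at pre-stress, 71.1 to 82.7 at 1 h and 102 to 129 at 6 h, with all 6 h values above all 1 h values. LOC106578470 ranged from 119 to 160 CPM, from 89.0 to 114 and from 102 to 174, and its 6 h mean was at -0.05 relative to pre-stress.

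Most of the 14 genes that fell furthest had few or no counts at 1 h. Their summed expression was 26.1 to 70.1 CPM at pre-stress, 2.08 to 8.61 at 1 h and 23.8 to 132 at 6 h. Of their 84 values at 1 h, 22 were counts of 0, whereas none of their values in the 12 lane 3 libraries was 0. LOC106591005 was the least silent, with 140 counts over the 1 h libraries, of which 56 were in CD library 3 and 55 in LAN4 library 1. The only gene with a symbol among them was hsp7c, for a constitutive heat shock chaperone of the Hsp70 family (chromosome 20, 66785072 to 66794750, + strand). Its counts at pre-stress were 23, 25 and 22 in CD and 12, 7 and 3 in LAN4, those at 1 h were 0, 0 and 1 in CD and 0, 3 and 2 in LAN4, and those at 6 h were 25, 17 and 10 in CD and 51, 58 and 10 in LAN4. With counts this low, the log2 difference of -3.73 depends on the 0.5 added to each count. The lists of heat shock and hypoxia genes, with 15 and 14 measured genes, had no match among the 107. Their medians were 0.08 and -0.01 at 1 h. The heat shock list names genes of the Hsp70 family such as hspa8 but not the symbol hsp7c. The absence of hsp7c from that list is thus one of symbol matching.

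The gene LOC106599082 was the most abundant of the 14 (chromosome 3, 16492241 to 16496771, - strand, 1 exon). It stood at 8.70, 14.3 and 15.3 CPM in CD and 6.18, 1.86 and 3.96 in LAN4 at pre-stress, at 0.257 to 0.984 in the 6 libraries of 1 h, and at 7.26, 6.53 and 11.2 in CD and 43.4, 22.8 and 4.58 in LAN4 at 6 h. ENSSSAG00000107075 had the deepest fall (chromosome 14, 62153773 to 62156030, - strand), from a total of 329 counts over the 6 pre-stress libraries to 8 at 1 h. The 14 genes lie on 10 chromosomes, and 8 of them could not be paired with a RefSeq gene, or 57.1% against 19.9% of all eligible genes. Of the 14, 9 had 1 or 2 exon blocks, which is 64.3% of them against 7.42% of all eligible genes.

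These genes also varied together among fish. Over the 12 lane 3 libraries, 12 of the 14 had a Pearson correlation with the mean log2 expression of the other 13 of 0.79 to 0.94, the exceptions being ENSSSAG00000107169 (0.31) and LOC106591005 (0.30). The 12 libraries share a lane and hold 4 groups, and 6 of them are the pre-stress libraries that the rule used, so the correlation mixes differences between groups with those between fish and is given as a description. It was not confined to the 14. Eligible genes outside the 107 were ranked by their correlation with the mean of the 14, and only the highest were looked at. The share of all genes at such values was not counted. These highest ones included ENSSSAG00000101841 (0.95), ENSSSAG00000104310 (0.93) and LOC106585470 (0.85). The 1 h differences of these 3 were -0.44, -0.79 and -0.17. In other genes alike in this way the difference ran from -2.36 (ENSSSAG00000091192) to 0.11 (LOC106602194). Most of those looked at were lower at 1 h on average, so the likeness was not shown to be separate from the fall. Within pre-stress, all LAN4 values lay below all CD values in 7 of the 14 genes, while 6.90% of all genes showed this. Genes that vary together are not separate observations. The edgeR test between diets at pre-stress called none of the 14 (lowest adjusted p = 0.264). At 6 h LAN4 libraries 1 and 2 had the highest sums (132 and 91.8 CPM) and LAN4 library 3 the lowest (23.8), so the 3 LAN4 fish bracketed the CD fish. The median spread over 6 libraries was 0.92 (SD, log2) at pre-stress and 0.96 at 6 h in the 14 genes, against 0.21 and 0.22 over all genes. The 14 genes had a median of 1.46 CPM against 18.4 over all genes, and the part of low counts in this spread was not tested.

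**Figure D3:**
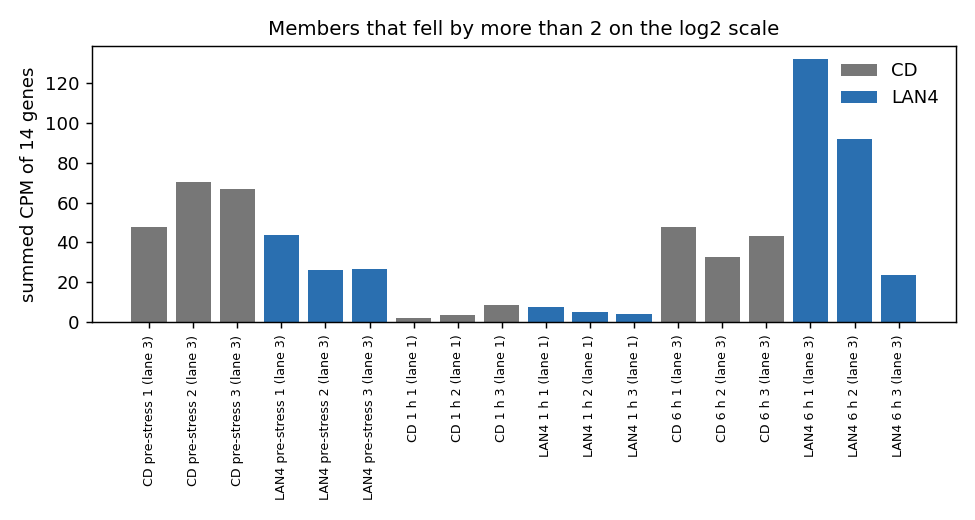
Summed CPM of the 14 genes whose mean fell by more than 2 on the log2 scale, 1 bar per library (CD grey, LAN4 blue), with the sequencing lane of each library in its label. The bars of the 1 h libraries, all on lane 1, reach 2.08 to 8.61 CPM, those of pre-stress 26.1 to 70.1, and those of 6 h 23.8 to 132, with LAN4 6 h libraries 1 and 2 highest.

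Whether expression had returned at 6 h was read from libraries that the rule used only in its filter on mean CPM. Among scarce genes this filter favours high 6 h values. The pre-stress libraries compared with the 6 h libraries are those of the rule, so a high pre-stress value by chance moves both differences. The median difference between 6 h and pre-stress over the 107 genes was -0.19 (log2), against -0.03 over all eligible genes. It was -0.26 over the 93 genes outside the deep falls (-0.24 in CD and -0.22 in LAN4). Over the 14 deep falls it was 0.41, but -0.56 in CD and 1.34 in LAN4. The pooled value thus holds opposite directions in the diets, a difference that was not tested. The 14 genes were scarce (median 1.46 CPM, lowest 1.02), and most had few or no counts at 1 h. Some could thus pass the filter only through high 6 h values, and a rise at 6 h is partly built in. At 6 h the summed expression of the 14 was 132, 91.8 and 23.8 CPM in LAN4 libraries 1, 2 and 3. In the 6 h libraries taken singly the median over the 107 genes ranged from -0.37 in CD library 2 to -0.09 in CD library 3, with an SD of 0.13. The median share of the fall that was regained was 69.6%, with 68 genes at 50% or more. This share uses the 1 h and pre-stress values that the rule chose and crosses the lanes, so some rise from 1 h is built in. The 6 h mean was above the pre-stress mean in 34 of the 107 genes, beside 9744 of all 21543. It was below the 1 h mean in 11 of the 107 genes, beside 11866 of all 21543.

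By overlap, 95 of the 107 genes had 6 h values that overlapped their pre-stress values, beside 20437 of all 21543 genes. All 6 h values lay below all pre-stress values in 11 genes, or 10.3% against 2.39% of all genes. They lay above in 1 gene, beside 2.74% of all genes. These counts share the pre-stress libraries with the rule, which asked for high values there. All 6 h values lay above all 1 h values in 38 genes, or 35.5% against 3.16% of all genes, in a comparison that shares the 1 h libraries with the rule and crosses the lanes. Of these 38 genes, 13 were among the 14 deep falls and 25 among the other 93. The 93 genes had a median SD of 0.27 (log2) at 6 h against 0.22 over all genes, at a median of 12.3 CPM against 18.4. CD library 2 was the lowest of the 6 h libraries for 37.4% of the 107 genes and for 28.1% of all genes. Among pre-stress libraries CD library 3 was the highest for 40.2% of the 107 genes and for 16.4% of all genes.

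**Figure D4:**
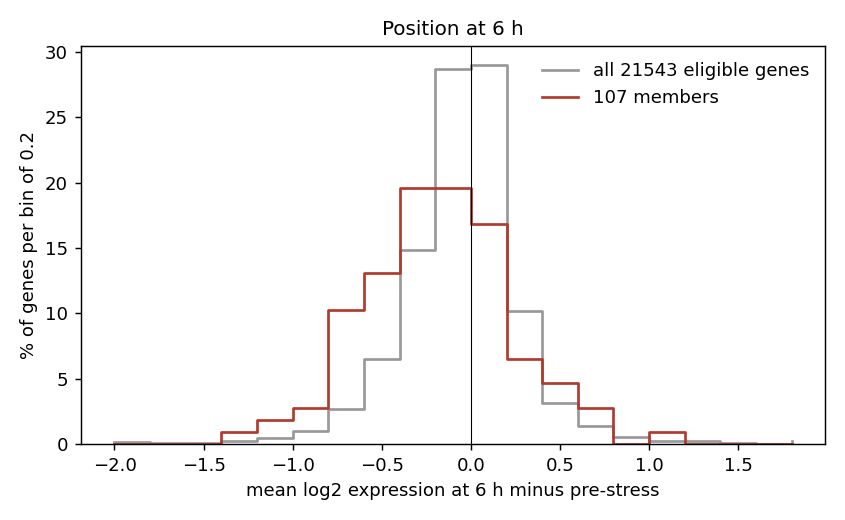
Distribution of the mean log2 expression at 6 h minus pre-stress in bins of 0.2, as a percentage of the 107 genes (red) and of all 21543 eligible genes (grey), values beyond -2 and 2 being counted in the end bins. The 107 genes lie further left, with a median of -0.19 against -0.03, and with tcima the only one of them above 1.

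In the edgeR test of 6 h against pre-stress with the diets averaged, which is within lane 3, 13 of the 107 genes passed an adjusted p of 0.05. The 12 lower genes are 11.2% of the 107, against 5.34% of all 23153 tested genes, and the 1 higher gene, tcima, stands beside 6.34% of all. An unadjusted p below 0.05 was reached by 38 of the 107 genes, or 35.5% against 26.1% of all. This contrast shares its pre-stress libraries with the rule, which asked for high values there. The excess of lower genes over all genes is thus partly built in and is given as a description. None of the 14 deep falls was called with all libraries. Without LAN4 6 h library 3, the counts were 4 higher and 8 lower, beside 2053 of all 23486 genes called in either direction. The higher ones included the deep falls LOC106599082 (adjusted p = 0.0192) and ENSSSAG00000107075 (adjusted p = 0.0448). Leaving out 1 library at a time gave 9 to 18 called genes, the fewest without CD pre-stress library 3 and the most without LAN4 6 h library 1. Over all genes these runs called 1885 of 23504 and 2595 of 23485, beside 2705 of 23153 with all libraries. The run with the fewest called of the 107 thus also had fewer calls over all genes. The run with the most did not have more calls over all genes. Of the 13 genes, 9 were called under all 23 alternatives, and dact1, cacna1bb, LOC106597732 and LOC106569546 were not.

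The genes called lower at 6 h than at pre-stress were mostly without a symbol. LOC106573044 (chromosome 16) was at 4.52, 4.29 and 4.31 CPM in CD and 3.95, 7.52 and 7.51 in LAN4 at pre-stress, at 1.97 to 3.03 at 1 h, and at 1.87, 1.44 and 1.75 in CD and 3.42, 2.32 and 1.99 in LAN4 at 6 h. Its edgeR change at 6 h was -1.30 (SE 0.182, adjusted p = 0.000177), and within each diet the 6 h and pre-stress values did not overlap. LOC106561389 (chromosome 10) ranged from 7.99 to 10.2 CPM at pre-stress, from 5.23 to 7.65 at 1 h and from 2.54 to 6.27 at 6 h, so it was lower at 6 h than at 1 h on average, and its change was -0.97 (SE 0.182, adjusted p = 0.00217). LOC106581254 (-0.62), LOC106590062 (-0.52), LOC106574301 (-0.61), LOC106594506 (-0.67) and LOC106572154 (-0.64) were also called, with adjusted p between 0.000768 and 0.0139. In LOC106574301 the ranges were 66.1 to 78.8 CPM at pre-stress, 36.5 to 64.8 at 1 h and 37.3 to 58.1 at 6 h. Of the 11 genes without overlap at 6 h, 9 were among the 12 called lower.

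The diets were compared within each time and so within a lane. No gene of the 107 passed the edgeR test between LAN4 and CD at pre-stress, at 1 h or at 6 h, and over all genes the shares called were 0.00864%, 0% and 0.587%. At an unadjusted p below 0.05 the counts were 12, 4 and 18 of 107, which is 11.2%, 3.74% and 16.8%, beside 9.29%, 8.32% and 15.4% of all genes. The rule used the pre-stress and 1 h libraries, and its no-overlap condition narrows the spread among them. The diet counts at these times are therefore a description and no result about diet. DESeq2 called none of the 107 at pre-stress and 1 h, beside 105 of 21359 and 21 of 22709 over all genes. At shares this small 107 genes could well hold none. At 6 h it called 2, ENSSSAG00000039031 and LOC106574871, both lower in LAN4, which is 1.87% of the 107 beside 3.13% of all genes. At 6 h LOC106574871 was at 19.4, 17.2 and 19.2 CPM in CD and 15.9, 12.0 and 14.5 in LAN4, and at pre-stress at 19.5, 21.3 and 20.5 against 17.1, 16.8 and 16. The 3 LAN4 values lay below the 3 CD values at both times, with an edgeR change at 6 h of -0.44 (SE 0.114, adjusted p = 0.0778).

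The median fall was -0.58 in CD and -0.54 in LAN4 over the 93 genes, a likeness to which the rule contributes because it asks for low values in all fish. Over the 14 deep falls it was -4.38 in CD and -2.77 in LAN4, where the LAN4 pre-stress sums were the lower ones and the size depends on the 0.5 added. The edgeR test of the difference between diets in the change from pre-stress to 1 h called none of the 107 genes and 0.00864% of all. DESeq2 called none of the 107, beside 52 of 22035 over all genes. Both tests compare the pre-stress and 1 h libraries that the rule used, so their counts are a description. In edgeR 11 of the 107 genes, or 10.3% against 9.85% of all, had an unadjusted p below 0.05. The lowest p among them belonged to lage3, with a difference of 0.75 (SE 0.234, adjusted p = 0.377). In CD its values were 8.62, 7.85 and 9.13 CPM at pre-stress and 4.66, 4.10 and 5.15 at 1 h. In LAN4 they were 8.24, 7.43 and 7.10 at pre-stress and 6.31, 6.85 and 6.68 at 1 h. The fish of the 2 times are different fish. The mean log2 difference between these groups was larger in CD (-0.88) than in LAN4 (-0.2), without passing the test.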

How the data were processed

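The authors deposited 1 file of raw counts per library, made with featureCounts on the Ssal_v3.1 assembly and its Ensembl gene set. Per the file headers fragments were counted in reverse-stranded mode, duplicates were kept, and fragments that map to several places or fit several genes were left out. The submitters' notes name Subread 1.5.1. Each file lists 69389 genes, of which 42615 are on the 16 complete chromosomes. Gene symbols came from RefSeq genes that share at least 0.5 of both spans, and 25266 genes were paired. The reference table gives symbols without product names, so all 21 members with a symbol are named. Others were named for the largest and smallest differences, for abundance, or after their values were seen. No sequences are shown, because none were used here.

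The members and the gene lists were chosen with earlier results of these data known. Tests were run on all 18 libraries with edgeR 4.0.16 (R 4.3.3, filterByExpr, TMM, quasi-likelihood, 1 mean per group, Benjamini-Hochberg adjustment over 23153 genes, threshold 0.05). The SE given with an edgeR change is not an edgeR output. It is the absolute log2 change divided by the square root of the F statistic of the test. DESeq2 1.42.0, other scalings, no filter, the replicate number as a block and leaving out each library were alternatives. The scripts were tested on simulated data. Replicates are separate fish, but the tank of each is not given in the sources used here, so fish of a group may share one and p-values take them as independent.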

Additional observations from a re-analysis of the deposited data

Results flagged for a closer look

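LOC106565539, one of the 14 deep falls (chromosome 12), differed from pre-stress in opposite directions at 6 h in the diets, and this difference was not tested. In CD the pre-stress values were 1.81, 2.10 and 2.87 CPM and the 6 h values 1.59, 1.51 and 1.75, a mean log2 difference of -0.46. In LAN4 the pre-stress values were 0.687, 0.650 and 0.956 CPM and the 6 h values 4.84, 3.55 and 1.40, a difference of 1.87. At 1 h the gene was at 0 to 0.267 CPM in both diets. Over the pre-stress and 1 h libraries together its mean was below 1 CPM, so it passed the filter through its 6 h values. It was picked out because the 3 values at 6 h lay below the 3 pre-stress values in CD and above them in LAN4, which was so in no other of the 107 genes.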

How the results depend on the processing

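The number of genes taken by the rule depended on its settings: 71 with a mean of at least 5 CPM, 53 with a threshold of -0.6, 937 with CD libraries alone and 1290 with LAN4 libraries alone, where 3 against 3 separate more easily. CD alone kept 95 of the 107 genes and LAN4 alone 92, and TMM-scaled totals gave 119 genes with 94 of the 107. Leaving out 1 library gave 113 to 190 genes, with 178 without CD pre-stress library 1, 190 without LAN4 pre-stress library 2 and 174 without CD 1 h library 1. The median difference at 6 h stayed below 0 under all alternatives, between -0.29 and -0.14, with -0.24 to -0.16 when a 6 h library was left out. Without the 14 deep falls, an alternative chosen after seeing the data, it was -0.26. DESeq2 called 2 genes between diets at 6 h where edgeR called 0, and over all genes it called 774 of 24736 where edgeR called 136 of 23153. Leaving out a library gave 0 called genes of the 107 in each diet test. Over all genes these runs also called few. At 6 h the count ran from 0 of 23498 (without CD 6 h library 2) to 362 of 23485 (without CD pre-stress library 1). It was at most 4 at pre-stress, 1 at 1 h and 4 for the difference between diets in the change to 1 h. These zeros therefore say little about the 107. With the replicate number as a block, edgeR called 14 of the 107 genes at 6 h against pre-stress, beside 2580 of all 23153. It called 0 of the 107 in each of the 4 diet tests, beside at most 150 of all. The numbers do not pair fish: of 45 pairs of libraries with the same number, 12 had correlated deviations above 0.1, with a range of -0.202 to 0.268. Depth limits most of the 14 deep falls, in which 22 of 84 counts at 1 h were 0.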

Other observations

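The chromosomes and scaffolds left out could be read in the 12 pre-stress and 1 h libraries, though not at 6 h. By the same rule 65 of 9559 genes there, or 0.68%, were lower at 1 h and 1.11% were higher, and 4 of the 65 had a mean difference beyond -2. In 1 of these, ENSSSAG00000113217, the lowest pre-stress value and all 1 h values were 0, so its groups were separate only through the 0.5 added and the library totals. Among those with a symbol was ptch1, the receptor of Hedgehog ligands, with 69.5 to 89.1 CPM at pre-stress (median 74.1) and 31.4 to 61 at 1 h (median 44.6), a difference of -0.76. The others were si:dkey-191g9.7 (-1.07), si:dkey-49n23.1 (-0.72), t2fb, which encodes a subunit of a general transcription factor (-0.84), dip2a (-0.72), znf827 (-0.62), the DNA ligase gene lig4 (-0.51), focad (-0.46) and unk (-0.42). As on the other chromosomes, these differences chose the genes and the 1 h libraries share lane 1.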
